A study of Mus musculus with 6 samples.

Results

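Neurexins are cell-surface proteins of the presynaptic terminal, and the genes described here encode neurexins and the proteins that bind them or resemble them across the synapse. They were the 9 genes whose symbol in the deposited table of counts equals Nrxn2, Nrxn3, Nlgn1, Nlgn2, Nlgn3, Lrrtm1, Lrrtm2, Lrrtm3 or Cntnap2. All 9 were found among the 23284 genes of the table, once each, and all 9 passed the filter on low counts, which kept 15258 genes. Their levels were compared between mouse prefrontal cortex from single-housed and from group-housed animals.

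At a synapse, neurexins reach from the axon terminal into the cleft and bind neuroligins and leucine-rich repeat transmembrane proteins (LRRTMs) on the receiving neuron, which join them to the scaffold that holds neurotransmitter receptors. Neuroligin 1 sits mainly at excitatory synapses, neuroligin 2 at inhibitory synapses and neuroligin 3 at both kinds, while the LRRTMs act at excitatory synapses and share the neurexin partners of the neuroligins. Contactin-associated protein-like 2, the product of Cntnap2, is a neurexin-like protein of the axon that helps to cluster potassium channels beside the nodes of Ranvier. Variants in several of these genes are known from studies of autism and social behaviour.

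The series, titled for a role of interferon-gamma in social behaviour and in the connectivity of neurons, holds 6 RNA-seq libraries of prefrontal cortex. All came from wild-type C57BL/6 mice, given as C57BL/6J in the growth protocol, with an age of 8 to 10 weeks in the labels. In 3 libraries the mice had been housed singly for 6 days, and in the other 3 they had been housed in groups for 6 days. No allele, infection or drug is named in the labels, and they give neither the sex nor the number of mice behind a library. The p-values therefore measure the spread between these libraries, which may be technical in part.

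Total counts ran from 25858355 to 33428512 per library, with the lowest in group-housed replicate 1, and the 9 genes held 0.139% to 0.168% of them. The excitatory neuron marker Slc17a7 was present in every library, at 1908 to 2169 CPM (read counts scaled to library size, after TMM normalization). Markers of striatal neurons were present as well and varied: Drd2 ran from 0.870 to 47.05 CPM, and the mean log2 CPM of 19 striatal markers was 6.02, 5.05 and 3.09 in single-housed replicates 1 to 3 and 4.97, 3.16 and 3.54 in group-housed replicates 1 to 3. The mean log2 CPM of 8 oligodendrocyte markers was highest in group-housed replicate 1, at 8.41 against 6.92 to 8.01 in the other libraries. In bulk tissue such as this, fewer cells of a type and less RNA per cell cannot be told apart.

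Promoter windows are printed for 3 of the genes: Nlgn2, the neuroligin with the highest level, and Lrrtm1 and Lrrtm3, whose levels went together across the libraries as described later. Each runs from 250 bases before to 50 bases after a transcription start in RefSeq (build GRCm38.p6), 5′ to 3′ on the gene's strand, and capitals mark GC boxes. Nlgn2 lies at chr11:69837735-69838034 on the minus strand, Lrrtm1 at chr6:77242227-77242526 on the plus strand and Lrrtm3 at chr10:64090206-64090505 on the minus strand.
Nlgn2: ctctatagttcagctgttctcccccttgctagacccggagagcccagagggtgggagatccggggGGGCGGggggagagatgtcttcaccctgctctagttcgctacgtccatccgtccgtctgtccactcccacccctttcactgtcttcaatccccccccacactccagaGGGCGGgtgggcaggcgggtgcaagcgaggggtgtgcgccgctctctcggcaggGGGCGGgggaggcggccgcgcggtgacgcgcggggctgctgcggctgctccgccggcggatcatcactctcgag
Lrrtm1: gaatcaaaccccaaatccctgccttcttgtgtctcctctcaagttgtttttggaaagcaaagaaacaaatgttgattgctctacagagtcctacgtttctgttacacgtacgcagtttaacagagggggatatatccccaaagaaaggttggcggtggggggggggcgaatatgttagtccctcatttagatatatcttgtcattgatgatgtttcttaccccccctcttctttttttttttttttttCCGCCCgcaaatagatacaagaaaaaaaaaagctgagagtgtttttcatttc
Lrrtm3: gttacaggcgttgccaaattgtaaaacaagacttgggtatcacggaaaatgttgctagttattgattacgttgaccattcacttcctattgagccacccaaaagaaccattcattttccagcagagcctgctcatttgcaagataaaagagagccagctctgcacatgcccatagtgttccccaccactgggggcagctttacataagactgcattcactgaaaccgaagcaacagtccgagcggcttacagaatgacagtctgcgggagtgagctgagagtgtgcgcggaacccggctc

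Promoters came from a table of RefSeq windows of 300 bases, cut down to unique sequences and without chromosome 18, on which Lrrtm2 lies. The table so cut held promoters for 6 of the 9 genes, and all shares given here are over it. The GC box GGGCGG was searched on both strands and occurred 3 times in the Nlgn2 window, 1 time in the Lrrtm1 window, on the opposite strand, and not in the Lrrtm3 window, while 35.9% of the 32544 mouse promoters in the table held it. The Nlgn2 window had 26 CpG dinucleotides, more than 83.0% of all promoters, against 7 in the Lrrtm1 window and 10 in the Lrrtm3 window, with a median of 7 over all promoters. None of the windows of the 6 genes held the cAMP response element TGACGTCA (1.8% of all promoters), the EGR motif GCGGGGGCG (2.93%) or the letters TATAAA (13.6%). These matches describe the letters only.

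Levels between genes were compared as CPM per kilobase of the deposited gene length, over the 6 libraries. Nrxn2 (76.6 ± 6.10 CPM per kilobase, SD, n = 6) and Nlgn2 (76.1 ± 5.12) stood far above the other 7 genes. Nrxn2 was above Nlgn2 in 3 of 6 libraries, so their order was within the spread. Nlgn2 was 2.97 times as high as Nrxn3, the next gene, and higher in 6 of 6 libraries.

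Nrxn3 (25.6 ± 2.66 CPM per kilobase) and Lrrtm1 (23.8 ± 1.33) followed and were ordered that way in 4 of 6 libraries. Below them came Nlgn3 (19.9 ± 2.12), Lrrtm3 (17.6 ± 1.24) and Nlgn1 (13.2 ± 1.76), each lower than the gene before it in every library. Nlgn1 and Lrrtm2 (13.0 ± 0.742) were not separated, with Nlgn1 higher in 3 of 6 libraries. Cntnap2 was the lowest of the set at 11.6 ± 1.67 CPM per kilobase, below Lrrtm2 in 6 of 6 libraries, yet still above 61.1% of the tested genes.

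**Figure D1:**
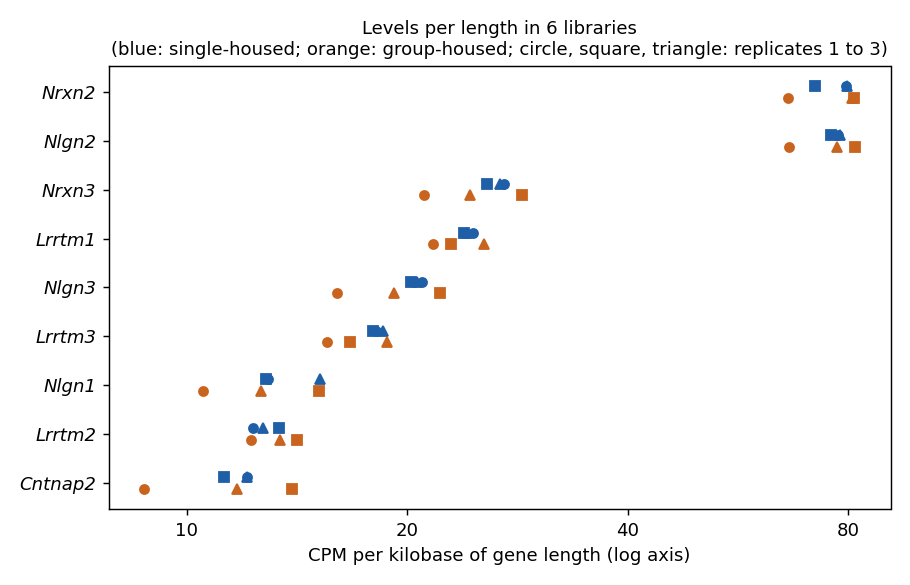
Level of each of the 9 genes in CPM per kilobase of gene length (log axis), 1 mark per library, blue for single-housed and orange for group-housed, with circles, squares and triangles for replicates 1, 2 and 3. Nrxn2 and Nlgn2 lie together between 66.3 and 81.7, and the other 7 genes lie between 8.75 and 28.7.

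Within the neuroligins measured here, Nlgn2 made up 68.5% to 71.4% of the summed CPM per kilobase in each library. Nlgn3 gave 17.2% to 18.8% and Nlgn1 11.3% to 13.4%. The 3 LRRTM genes described here were closer to each other: Lrrtm1 gave 42.6% to 44.7% of their sum, Lrrtm3 31.1% to 33.4% and Lrrtm2 22.4% to 26.3%. These shares varied little between libraries compared with the differences between genes.

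Housing was tested next, gene by gene, over the whole table with edgeR's quasi-likelihood F-test and Benjamini-Hochberg adjustment, and differences are given as log2 single-housed minus group-housed. No gene of the 15258 passed an adjusted p of 0.05 (0%), so none of the 9 did. At an unadjusted p below 0.05 the count was 238 genes (1.56%) and 0 of the 9. The single-housed and group-housed values did not overlap for 742 genes (4.86%), and again for 0 of the 9. DESeq2 called 8 genes and limma-voom 0, with none of the 9 among them. Each of the 9 had an edgeR adjusted p of 0.9999, as did every gene of the wider lists named later.

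Of the neurexins described here, Nrxn2 (chromosome 19, 6418738 to 6533217 in build mm9, 23 exon intervals) was the one with the higher level per kilobase. All gene positions are those of the deposited table. It was at 529.5, 480.2 and 530.0 CPM in the single-housed replicates 1 to 3 and at 441.5, 542.2 and 539.3 CPM in the group-housed ones. The lowest and the highest value were both group-housed, so the single-housed libraries lay inside the range of the group-housed ones. The means were 513.2 ± 28.6 CPM (SD, n = 3) and 507.6 ± 57.3 CPM, a difference of 0.02 (SE 0.0961). The 95% interval ran from -0.20 to 0.23, that is a ratio of 0.869 to 1.18.

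Nrxn3 (chromosome 12, 89961320 to 91573373, 25 exon intervals) encodes another neurexin from a locus of 1612 kb. It was at 265.5, 251.5 and 261.7 CPM in the single-housed and at 206.1, 280.7 and 238.2 CPM in the group-housed libraries. Again group-housed replicate 1 was lowest and group-housed replicate 2 highest, with the 3 single-housed libraries close together between them. The means of 259.5 ± 7.21 and 241.7 ± 37.4 CPM gave a difference of 0.10 (SE 0.109, 95% interval -0.14 to 0.35). Counts per gene do not separate the long alpha and short beta forms of a neurexin, nor its splice variants.

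The neuroligins are the receiving side of the pair. Nlgn1 (chromosome 3, 25330763 to 26230831) was at 73.3, 72.7 and 86.3 CPM in the single-housed and at 59.8, 86.0 and 71.7 CPM in the group-housed libraries. Its groups overlapped and its highest library was single-housed replicate 3. The difference was 0.10 (SE 0.131, 95% interval -0.20 to 0.39), and the corresponding ratio of 0.869 to 1.31 was among the widest of the set.

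Nlgn2 (chromosome 11, 69636625 to 69648351), which serves inhibitory synapses, was at 387.7, 378.6 and 390.4 CPM in the single-housed and at 332.6, 408.7 and 386.5 CPM in the group-housed libraries. The 3 single-housed values differed by a coefficient of variation of 1.6%, against 10.4% in the group-housed ones. The means of 385.6 ± 6.17 and 376.0 ± 39.1 CPM differed by 0.04 (SE 0.0870, 95% interval -0.16 to 0.23).

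Nlgn3 lies on chromosome X, from 98494518 to 98516689. It was at 81.5, 78.7 and 79.98 CPM in the single-housed and at 62.3, 86.2 and 74.6 CPM in the group-housed libraries, the lowest value again being that of group-housed replicate 1. The difference of 0.11 (SE 0.110, 95% interval -0.14 to 0.36) had the largest size of the 9.

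The LRRTMs are competing postsynaptic ligands of neurexins. Each of Lrrtm1, Lrrtm2 and Lrrtm3 lies whole inside an intron of an alpha-catenin gene on the opposite strand in the deposited table, and shares 0 exon bases with it. Lrrtm1 (chromosome 6, 77192711 to 77195511, 2 exon intervals) was at 62.1, 60.3 and 60.9 CPM in the single-housed and at 54.6, 57.8 and 64.1 CPM in the group-housed libraries. The single-housed values lay within the group-housed range, and the difference was 0.05 (SE 0.0768, 95% interval -0.12 to 0.23). Its host, Ctnna2, was at 183.9 to 215.4 CPM.

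Lrrtm2 (chromosome 18, 35368663 to 35374678), whose host is Ctnna1, was the only one of the 9 with a lower mean in the single-housed group. It was at 69.9, 75.8 and 71.9 CPM in the single-housed and at 69.4, 80.2 and 76.0 CPM in the group-housed libraries. All but 1 of the group-housed values were above the single-housed ones, the exception being the lowest of all, group-housed replicate 1. The difference was -0.05 (SE 0.0767, 95% interval -0.23 to 0.12).

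Lrrtm3 (chromosome 10, 63391245 to 63553003) lies within Ctnna3, which had no more than 40 counts in any library. It was at 69.9, 69.1 and 71.3 CPM in the single-housed and at 59.9, 64.4 and 72.4 CPM in the group-housed libraries. A pair of group-housed libraries lay below all single-housed ones and the third lay above them. The difference was 0.10 (SE 0.0817, 95% interval -0.09 to 0.28).

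Cntnap2 (chromosome 6, 45010060 to 47251370) has the longest locus of the set, at 2241 kb. It was at 86.2, 80.4 and 86.4 CPM in the single-housed and at 62.5, 99.3 and 83.6 CPM in the group-housed libraries. No other gene of the 9 spread as widely within a group: its coefficient of variation was 22.6% in the group-housed libraries against 4.05% in the single-housed ones. The difference was 0.04 (SE 0.145, 95% interval -0.29 to 0.37).

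**Figure D2:**
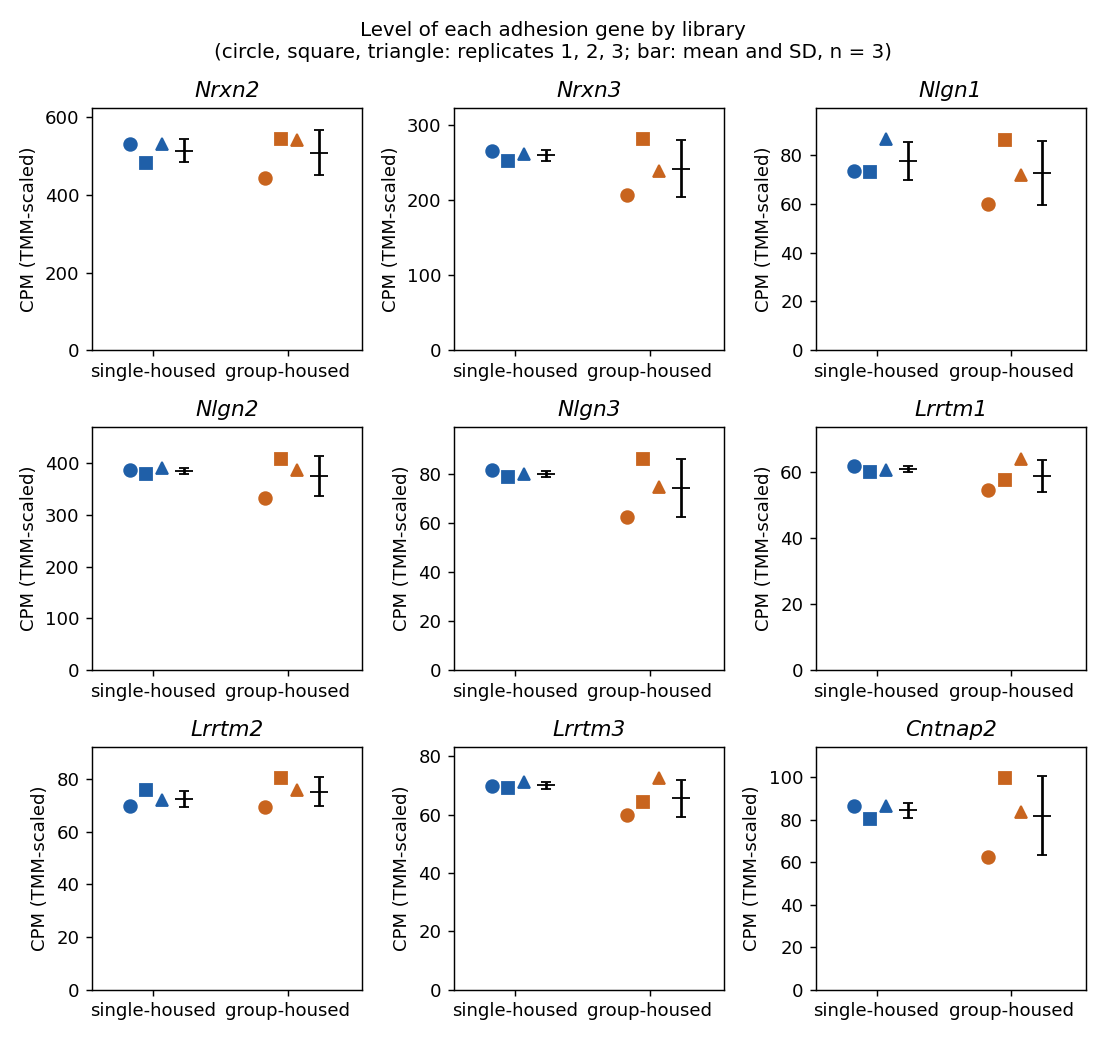
CPM of each of the 9 genes, 1 panel per gene with its own axis from 0, 1 mark per library (circle, square and triangle for replicates 1, 2 and 3), and the mean with its SD (n = 3) beside each group. In every panel the housing groups overlap and the lowest mark is the circle of group-housed replicate 1.

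Across the 9 intervals, the ratio of single-housed to group-housed levels was bounded between 0.819 and 1.31, both limits being those of the wider intervals (Cntnap2 and Nlgn1). Differences inside a gene's own interval were not detectable with 3 libraries per group. The means of 8 genes were higher and that of 1 was lower in single-housed mice, while 7739 of all tested genes were higher and 7519 lower, and the median difference was 0.05 for the 9 and 0.00 for all genes. The sign rested largely on 1 library: without group-housed replicate 1, Nrxn2, Nlgn1, Nlgn2, Nlgn3 and Cntnap2 turned to -0.07, -0.02, -0.04, -0.01 and -0.12, Nrxn3 and Lrrtm1 went to 0.00104 and 0.00367, Lrrtm3 to 0.04 and Lrrtm2 to -0.11. Without group-housed replicate 2, in contrast, Nrxn3, Nlgn1 and Nlgn3 were at 0.22, 0.24 and 0.23, with an edgeR adjusted p of 0.875. In a fit that also held the mean of the striatal list, the difference of Nlgn1 was 0.22 (SE 0.101), that of Cntnap2 0.15 and that of Nrxn2 0.07, each with an edgeR adjusted p of 0.999.

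**Figure D3:**
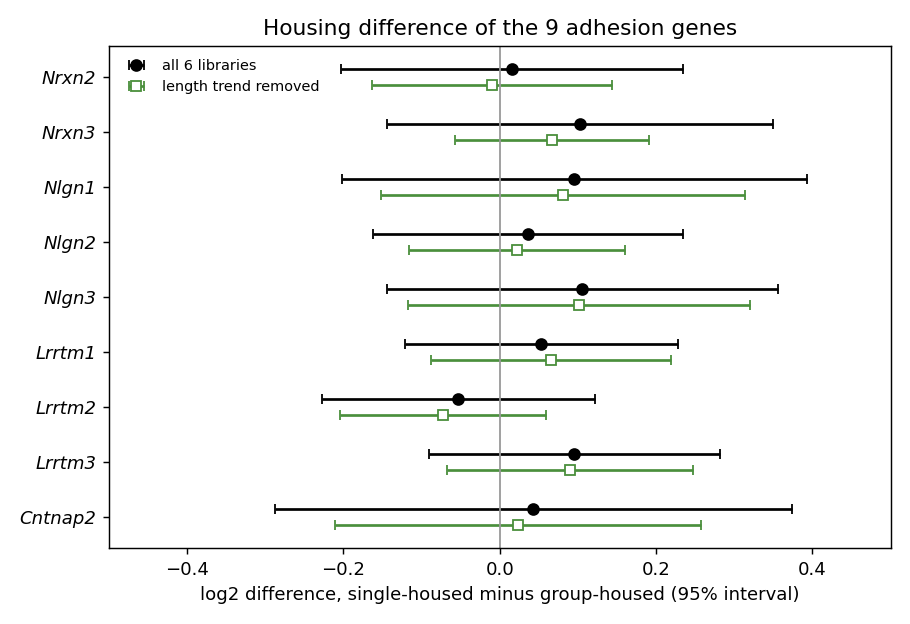
Log2 single-housed minus group-housed for each of the 9 genes with its 95% interval, from the fit to all genes and after the trend with gene length was removed. All intervals span 0, and the intervals are narrower with the length trend removed.

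Ratios between members within a library need no scaling between libraries, and 5 of them were set between the housing groups with an exact permutation test (two-sided), for which 3 against 3 libraries cannot go below p = 0.1. The log2 ratio of Nrxn3 to Nrxn2 counts was -0.996, -0.933 and -1.02 in the single-housed and -1.10, -0.95 and -1.18 in the group-housed libraries. These overlapped, with a difference of 0.09 (exact permutation p = 0.3, adjusted over the 5 ratios 0.5). The SDs were 0.04 and 0.12, so the difference was larger than the spread of the single-housed and smaller than that of the group-housed libraries. Without group-housed replicate 2 it was 0.16 (exact permutation p = 0.1, the smallest that 3 against 2 libraries allow).

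For the neuroligins, the log2 ratio of Nlgn2 to Nlgn1, the inhibitory to the excitatory form, was 2.40, 2.38 and 2.18 in the single-housed and 2.48, 2.25 and 2.43 in the group-housed libraries, a difference of -0.07 (exact permutation p = 0.5, adjusted 0.625). The Nlgn3 to Nlgn1 ratio differed by 0.01 (exact permutation p = 1, adjusted 1). Among the LRRTMs, Lrrtm2 to Lrrtm1 differed by -0.11 (exact permutation p = 0.2, adjusted 0.5) and Lrrtm3 to Lrrtm1 by 0.04 (exact permutation p = 0.2, adjusted 0.5). All 5 ratios overlapped between the groups.

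The spread between libraries was larger than the difference between housing groups. All 9 genes had their lowest CPM in group-housed replicate 1, the library for which this held in 26.4% of all tested genes and in 42.8% of the 6479 genes with a mean of at least 10 CPM and a length of at least 2.5 kb. In that library the log2 deviation from the gene's mean over 6 libraries ran from -0.09 for Lrrtm2 to -0.40 for Cntnap2. Nrxn2, Nrxn3, Nlgn2, Nlgn3, Lrrtm2 and Cntnap2 were highest in group-housed replicate 2, as were 20% of all genes.

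Gene length moved with these deviations. Among genes with a mean of at least 10 CPM, the median deviation in group-housed replicate 1 was 0.10 for the 2311 genes under 2 kb, -0.00 for the 3980 genes of 2 to 4 kb, -0.07 for the 2133 genes of 4 to 6 kb and -0.15 for the 1445 genes of 6 kb and over. In group-housed replicate 2 the order was the opposite, from -0.10 under 2 kb to 0.13 at 6 kb and over. The 9 genes have summed exon lengths of 2.52 kb (Lrrtm1) to 9.78 kb (Nrxn3), with a median of 5.67 kb against 2.88 kb for all tested genes.

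With the trend of log2 CPM on length removed from each library, a step added once these values were known, 8 of the 9 genes were still lowest in group-housed replicate 1, against 23.4% of all genes. Lrrtm2 was the exception, at 0.01 in that library. The deviation that was left there was -0.27 for Cntnap2, -0.26 for Nlgn3 and -0.22 for Nlgn1, and -0.09 for Nrxn2. The housing differences became 0.10 for Nlgn3, 0.09 for Lrrtm3 and -0.01 for Nrxn2, and none of the 9 passed the edgeR test. That library also had the lowest total count and the highest means of the oligodendrocyte, oligodendrocyte precursor (5.63 against 5.02 to 5.38 log2 CPM), microglia (5.49 against 5.10 to 5.29) and astrocyte markers (7.53 against 7.37 to 7.51), and their part in the low values of the 9 genes was not tested. The mean log2 CPM of 9 pan-neuronal markers was 9.54 there, within the 9.53 to 9.69 of the other libraries. The mean of 6 excitatory neuron markers was lowest there, at 7.76 against 7.84 to 8.04, with 3 of the 6 lowest in that library. The mean of 7 interneuron markers was highest there, at 6.80 against 6.66 to 6.77. The part of these neuronal markers was not tested either.

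**Figure D4:**
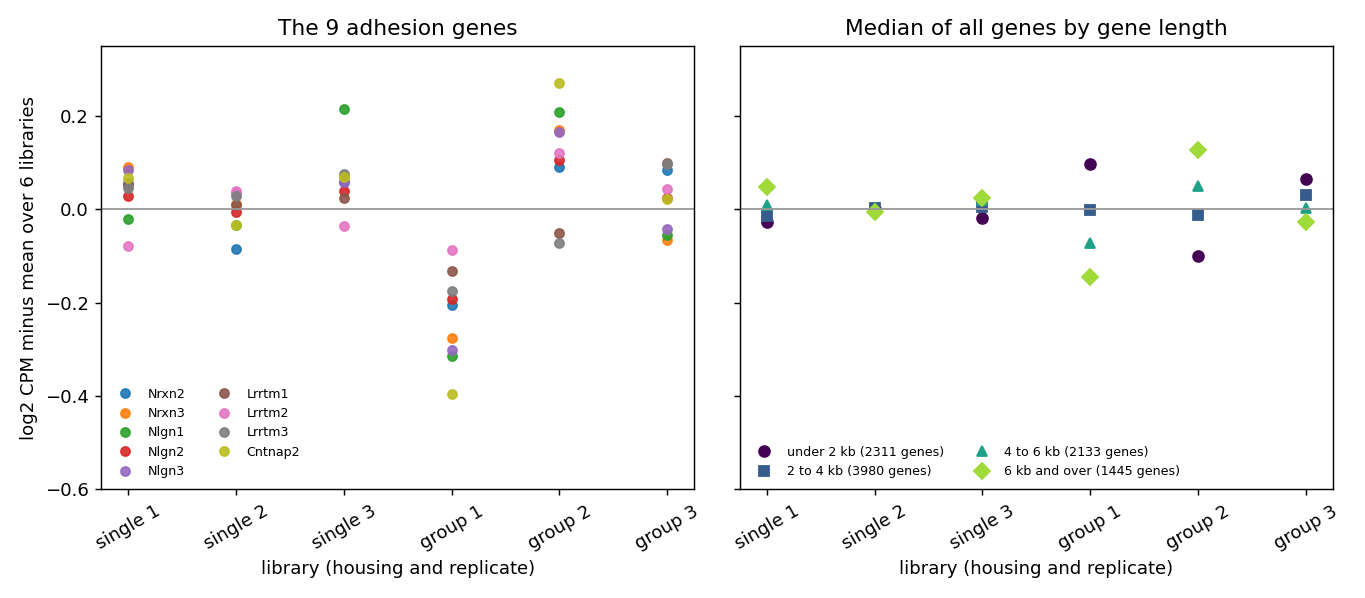
Log2 CPM minus the mean over 6 libraries, by library, for the 9 genes (left) and as the median over genes of each length class with a mean of at least 10 CPM (right). In group-housed replicate 1 all 9 genes lie below 0 and the medians go from 0.10 under 2 kb to -0.15 at 6 kb and over.

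The SD of log2 CPM was larger in the group-housed than in the single-housed libraries for all 9 genes, as it was for 67.6% of all genes. With the length trend removed it was larger for 8 of the 9 genes and for 61.3% of all genes. The largest contrasts were in Cntnap2 (0.34 against 0.06), Nlgn3 (0.24 against 0.03) and Nrxn3 (0.22 against 0.04).

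The genes were next compared with each other over the 6 libraries, in 36 pairs, by exact permutation tests. Nrxn3 and Nlgn3, a neurexin and a neuroligin, had a Pearson r of 0.993 (exact permutation p = 0.00139, adjusted over the 36 pairs 0.025) and a Spearman rho of 1 (exact permutation p = 0.00278, adjusted 0.05). Nlgn2 and Cntnap2 had an r of 0.992 (exact permutation p = 0.00139, adjusted 0.025) and a rho of 1 (exact permutation p = 0.00278, adjusted 0.05). Without group-housed replicates 1 and 2, the libraries farthest from the median, r was 0.987 and 0.961 for these pairs. With the length trend removed it was 0.912 and 0.985.

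Lrrtm1 and Lrrtm3, which lie on different chromosomes in different catenin genes, were the LRRTM pair with the highest r, 0.966 (exact permutation p = 0.00417, adjusted 0.04), with a rho of 0.943 (exact permutation p = 0.0167, adjusted 0.133). Their r was 0.893 without group-housed replicates 1 and 3 and 0.898 with the length trend removed. Their ratio within a library moved little, with log2 Lrrtm3 to Lrrtm1 at 0.13 to 0.23 over the 6 libraries. Of the 36 pairs, 10 passed an adjusted p of 0.05 by r and 0 by rho.

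Of the 10 pairs that passed by r, 4 stayed at 0.893 or above without the 2 libraries farthest from the median of the first gene: the 3 pairs above, and Nlgn1 with Nlgn2 (0.897 with all libraries and 0.939 without single-housed replicate 3 and group-housed replicate 1). The other 6 fell to between 0.183 and 0.631. Nlgn2 and Nlgn3 had an r of 0.962 that fell to 0.183 without group-housed replicates 1 and 2, and Nrxn3 and Nlgn2 had an r of 0.943 that fell to 0.333. Over the 15 pairs without an LRRTM gene, r ran from 0.796 to 0.993, and from 0.331 to 0.985 with the length trend removed. Over the 21 pairs with an LRRTM gene it ran from 0.133 to 0.966, and from -0.34 to 0.898 with the trend removed. Lrrtm2 set the lower end, with r from -0.34 to 0.03 against the other 8 genes once the trend was removed. Both ranges with all libraries leaned on group-housed replicate 1. With that library left out, r ran from 0.211 to 0.993 over the pairs without an LRRTM gene. Over the pairs with an LRRTM gene it then ran from -0.878 (Nlgn3 with Lrrtm3) to 0.904 (Lrrtm1 with Lrrtm3). Within a housing group 3 libraries are too few for a correlation.

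**Figure D5:**
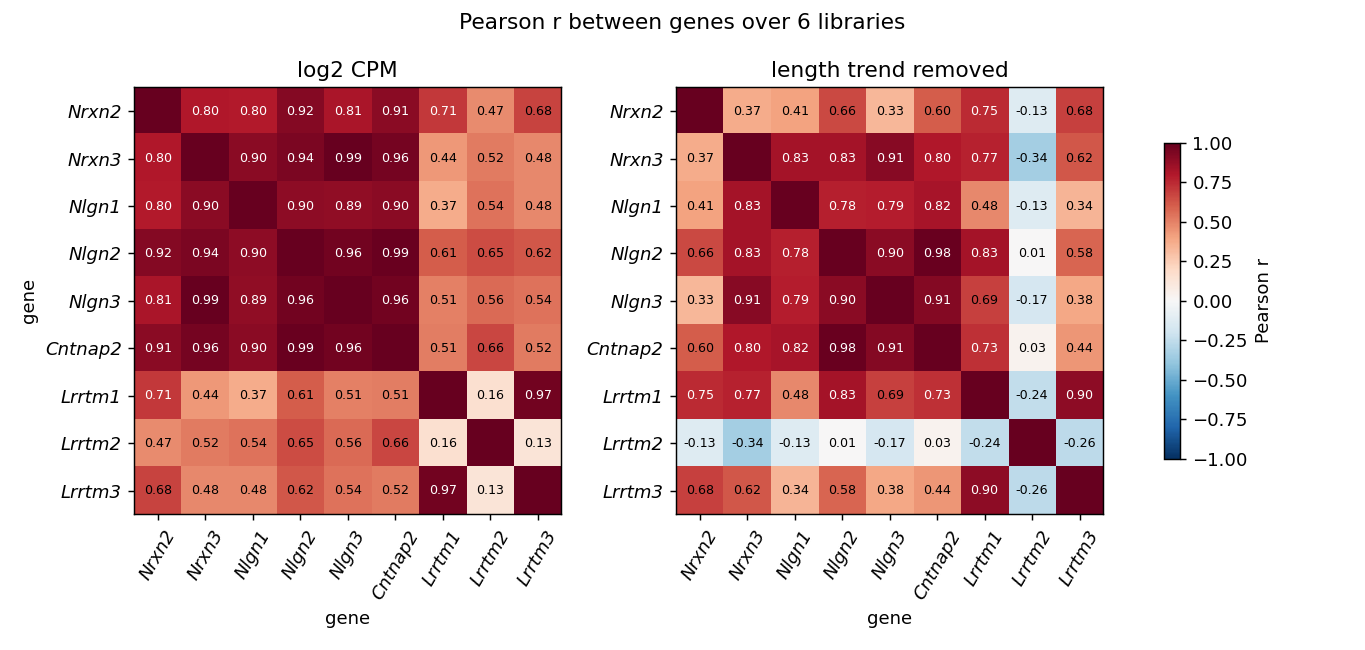
Heat maps of Pearson r between the 9 genes over 6 libraries, from log2 CPM (left) and with the length trend removed (right), red for positive and blue for negative r. Pairs without an LRRTM gene lie at 0.796 or above on the left, and on the right the row of Lrrtm2 runs from -0.34 to 0.03.

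Over the 6 libraries, each of the 9 genes had a gene outside the set with an r of 0.985 or above. For each of the 9 genes, 9379 named genes with a mean of at least 10 CPM were ranked by r. Nrxn3 followed Dnajc16 most closely (r = 0.999), and 9 genes (0.096%) were closer to it than Nlgn3, its nearest among the 9. Nlgn3 followed Dock3 (0.999), with 7 genes closer than Nrxn3, and Nlgn2 followed Akap6 (0.999), with 16 genes closer than Cntnap2.

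Lrrtm1 followed Plekhb2 (r = 0.988), with 6 genes closer to it than Lrrtm3, and Lrrtm3 followed Skiv2l2 (0.985), with 5 genes closer than Lrrtm1. Cntnap2 followed Gapvd1 (0.9995), with 27 genes closer than Nlgn2. The other 3 were less alike to their nearest member: Nrxn2 followed Gpr153 (0.993) with 228 genes closer than Nlgn2, Nlgn1 followed Cdc40 (0.998) with 472 genes closer than Cntnap2, and Lrrtm2 followed Zfp944 (0.990) with 1050 genes (11.2%) closer than Cntnap2. These values describe likeness over these libraries only.

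Because striatal markers varied within both housing groups, each gene was also fitted on the striatal list mean beside housing, which gives a slope in log2 CPM per log2 unit of the list. With edgeR's test and Benjamini-Hochberg adjustment, 246 genes (1.61%) had a slope past 0.05, and none of the 9 did. The 246 include 17 of the 19 striatal markers, from which the list mean itself was made. Their positive slopes were therefore built in and are no check of the test. All 9 slopes were negative, as were 7539 of the 15258 slopes in the table. They ran from -0.02 for Lrrtm1 to -0.14 for Nlgn1. Without group-housed replicate 1 they ran from 0.0136 for Lrrtm1 to -0.0956 for Nlgn1, with Cntnap2 next to Nlgn1 at -0.018. With the length trend removed they ran from -0.01 for Lrrtm2 to -0.11 for Nlgn1.

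The Nlgn1 slope was the steepest of the set (-0.14, SE 0.0450, 95% interval -0.24 to -0.03, unadjusted p = 0.0138, edgeR adjusted p = 0.236). Its highest library, single-housed replicate 3, had the lowest striatal list mean. Cntnap2 followed at -0.10 (SE 0.0623) and the other 7 were no steeper than -0.06. Libraries with more striatal marker RNA also had more oligodendrocyte marker RNA, with 7 of 8 oligodendrocyte markers past the same test, so the tissue type behind a slope cannot be told apart.

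The wider trans-synaptic system was read from 8 lists with 107 genes outside the 9, all of them tested. For housing 0 of the 107 passed the edgeR test, and 77 had a higher and 30 a lower mean in single-housed mice. Of all tested genes, 7739 were higher and 7519 lower. The median difference was 0.03 for the 107 against 0.00 for all genes. At an unadjusted p below 0.05, which 1.56% of all tested genes reached, there were 2 of 107 genes, a share near that background. Both were in the list of neurexin ligands and secreted organisers: Cbln2, and the scarce cerebellin gene Cbln3, which is outside the naming rule and was picked after its values were seen. Of the 107, 66 were lowest in group-housed replicate 1, as the 9 genes were. This held for 26.4% of all tested genes and for 42.8% of those with a mean of at least 10 CPM and a length of at least 2.5 kb. The median length of the 107 was 4.51 kb, against 2.88 kb for all tested genes.

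Among 17 neurexin ligands and secreted organisers, 9 were higher and 8 lower in single-housed mice. Cbln2, a secreted cerebellin that bridges neurexins to postsynaptic delta receptors, had the smallest p of the list. It was at 57.0, 53.5 and 70.2 CPM in the single-housed and at 66.5, 76.2 and 82.6 CPM in the group-housed libraries. The groups overlapped, and the difference was -0.32 (SE 0.118, unadjusted p = 0.0253).

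Several lists of receptors next to the neurexin system held more higher than lower means, none of them with a called gene. Of 22 LAR-type phosphatases and their partners, 16 were higher and 6 lower in single-housed mice, with a median of 0.05, and 14 were lowest in group-housed replicate 1. Il1rap, a postsynaptic partner of receptor phosphatases as well as an interleukin receptor subunit, was at 32.7, 30.9 and 31.3 CPM in the single-housed and at 37.2, 34.7 and 34.1 CPM in the group-housed libraries, without overlap (-0.16, SE 0.0766). Latrophilins, FLRTs and teneurins had higher means in 10 of 10 genes, with a median of 0.10, and 9 of these 10 were lowest in group-housed replicate 1.

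Odz3, the older symbol of teneurin-3, had the smallest p among those 10 genes. It was at 88.8, 88.2 and 58.1 CPM in the single-housed and at 64.5, 63.4 and 64.9 CPM in the group-housed libraries, so that single-housed replicate 3 lay below the group-housed range and the other 2 above it. The difference was 0.29 (SE 0.148). Single-housed replicates 1 and 2 were also the libraries with the highest striatal list means, and the part of striatal tissue in this difference was not tested beyond the slope of Odz3 on that mean, which was 0.16 (edgeR adjusted p = 0.217).

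Regulators of neuroligins were near balance, with 6 of 10 SynCAMs, MDGAs and related genes higher and a median of 0.00. Mdga2, whose product binds neuroligins and blocks their access to neurexins, was at 33.0, 34.5 and 32.2 CPM in the single-housed and at 27.8, 31.5 and 29.7 CPM in the group-housed libraries. Its groups did not overlap, as for 4.86% of all genes, and the difference was 0.16 (SE 0.0817).

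Contactins and the CNTNAP family, the relatives and partners of Cntnap2, had higher means in 16 of 17 genes with a median of 0.07. Of these 17, 10 were lowest in group-housed replicate 1, and with the length trend removed the median was 0.05. The smallest p was that of Cntnap3, at 8.28 ± 2.498 and 6.23 ± 1.054 CPM (SD, n = 3), a difference of 0.41 (SE 0.224). Cytoplasmic partners, the scaffold and release proteins inside the cell, had 11 of 18 higher, with Lin7b at 0.07 (SE 0.0672). Splicing regulators of neurexins had 6 of 10 higher, with Khdrbs3, an RNA-binding protein that controls a neurexin exon, at -0.10 (SE 0.0780).

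The host genes of the LRRTMs were also not called. Ctnna2 differed by 0.02 (SE 0.0802), Ctnna1 by 0.06 (SE 0.106) and the scarce Ctnna3 by 0.46 (SE 0.345). Whether the counting took account of strand is unknown. The exons of each LRRTM gene and its host do not overlap. Because each LRRTM gene lies inside a host intron, this does not show whether reads from that intron were counted for it. A share of host reads in the LRRTM counts was not tested.

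On the striatal list mean, 80 of the 107 slopes were negative and 2 genes passed the edgeR test, a share near the 1.61% of all genes, so the 2 are described as single genes. C1ql3 (chromosome 2, 12923514 to 12932491), a secreted synaptic organiser, was at 82.0, 90.3 and 122.5 CPM in the single-housed and at 79.3, 120.1 and 101.0 CPM in the group-housed libraries, and fell with the list mean (-0.23, SE 0.0380, edgeR adjusted p = 0.0173). Cntn2 (chromosome 1, 134406002 to 134439517), the axonal contactin that partners Cntnap2 beside the nodes, was at 217.9, 189.5 and 141.2 CPM in the single-housed and at 200.4, 150.5 and 164.6 CPM in the group-housed libraries, and rose with it (0.22, SE 0.0321, edgeR adjusted p = 0.0109). The partner Cntnap2 itself had a slope of the other sign, -0.10, which did not pass the test.

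Whether these 2 genes passed the test depended on single libraries, while their slopes kept their direction. Leaving out 1 library at a time, the slope ran from -0.275 to -0.2078 for C1ql3 and from 0.2105 to 0.2178 for Cntn2. The edgeR adjusted p of C1ql3 was 0.0790 when single-housed replicate 2 was left out and 0.184 when single-housed replicate 3 was. It was 0.0804 with group-housed replicate 1 left out and 0.0723 with group-housed replicate 3 left out. That of Cntn2 was 0.0589 and 0.237 on leaving out single-housed replicates 2 and 3, and 0.0566 on leaving out group-housed replicate 3. The oligodendrocyte list mean, beside which Cntn2 is given because oligodendrocytes also express it, was 8.01, 7.98 and 6.93 in the single-housed and 8.41, 6.92 and 7.61 in the group-housed libraries, and its part in the slope was not tested.

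The genes with the smallest slope p of the other lists did not pass the test. They were Lrrc4c, a netrin-G ligand (-0.15, edgeR adjusted p = 0.0625), Cadm2 (-0.11), the postsynaptic scaffold gene Dlgap1 (-0.11), Ptbp1, a splicing repressor (0.11), and Ctnna1 (0.12).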

How the data were processed

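RNA-seq libraries of mouse prefrontal cortex were compared between 3 single-housed and 3 group-housed samples. Per the labels' protocols, RNA was column-purified and libraries were made with a stranded kit that selects polyadenylated RNA. FastQC, STAR, featureCounts and build mm9 are named, per the submitters' processing notes. Their versions, the annotation and the strand setting were not given in the sources used here. Raw counts per gene, without normalization, were deposited by the authors with a gene length equal to the summed exon bases. Counts were tested with edgeR 4.0.16 in R 4.3.3 (quasi-likelihood F-test, TMM, filterByExpr with a minimum count of 10, Benjamini-Hochberg over 15258 genes, threshold 0.05). In simulated data with 200 changed genes, 55% of 1.5-fold and 92.5% of 2-fold housing changes were called, with 9 and 11 false calls. The simulation gave all genes the same dispersion and left out the length and tissue differences between libraries. DESeq2 1.42.0 and limma 3.58.1 served as alternatives. Total counts of 25858355 to 33428512 per library and a biological coefficient of variation of 11.8% set the precision. No libraries agreed within sampling noise (chi-square per degree of freedom 9.79 or more within groups).

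The 9 genes, the gene lists and the tests were chosen with earlier results of these data known. Outside the 9, the genes named are those of smallest housing p and smallest slope p in each list, all called genes of a list with up to 4, the LRRTM hosts, for each of the 9 the named gene of highest Pearson r, and defining genes of the marker lists. Alternatives were other scaling, filters, tests, covariates, left-out libraries, a replicate block and, added after seeing the data, removal of the length trend (lowess, span 0.5). Of the marker genes, 1 is not reported here.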

Additional observations from a re-analysis of the deposited data

How the results depend on the processing

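Over 16 alternatives none of the 9 genes passed the housing test (smallest adjusted p 0.875): 131 of 144 differences kept their direction, though not always their size, and 13 turned. Without the 3 libraries of highest striatal list mean, which leaves 1 against 2, so that the spread comes from the group-housed libraries alone and the lone single-housed library is assumed to vary like them, Nrxn2, Nlgn2, Nlgn3, Lrrtm1 and Cntnap2 were at -0.0282, -0.0260, -0.00693, -0.00126 and -0.0818, the log2 ratio of Nlgn3 to Nlgn1 was -0.14, and 4 genes of the table were called. Leaving out 1 library at a time gave -0.0741 to 0.0689 for Nrxn2, -0.0242 to 0.24 for Nlgn1, -0.0435 to 0.10 for Nlgn2, -0.00573 to 0.23 for Nlgn3 -0.12 to 0.21 for Cntnap2, 0.00104 to 0.22 for Nrxn3, 0.00367 to 0.12 for Lrrtm1, -0.11 to -0.00393 for Lrrtm2, 0.0367 to 0.17 for Lrrtm3, -0.13 to 0.00577 for the ratio of Nlgn2 to Nlgn1 and -0.0388 to 0.0922 for that of Nlgn3 to Nlgn1, with 0 to 1 genes called. DESeq2 called 8 genes. With the length trend removed Nrxn2 was at -0.0102. For these turns the cause was not tested.

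No slope of the 9 passed under 11 alternatives (smallest adjusted p 0.143), and 95 of 99 kept their direction. Leaving out 1 library at a time gave -0.0536 to 0.0136 for Lrrtm1 and 69 to 311 slope calls in the table, with 157 without single-housed replicate 2, 69 without single-housed replicate 3, 124 without group-housed replicate 1 and 89 without group-housed replicate 3. Same-numbered libraries did not deviate together (r of 0.27, -0.32 and 0.17), so the numbers were not taken as pairs. With the replicate number as a block, housing calls stayed at 0, Nrxn2 differed by 0.02 and slope calls fell to 19. The slopes of Lrrtm1, Lrrtm2 and Lrrtm3 were then 0.0717, 0.00564 and 0.0663. C1ql3 and Cntn2 had an adjusted p of 1, with slopes of -0.278 and 0.236 and an SE of 0.116 each. The slope fit with this block leaves few degrees of freedom. Depth was ample for all 9 genes, with at least 1453 counts in every library; the number of libraries limits the precision.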
